A study of Mus musculus with 9 samples.

Results

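The 44 genes described here make up the machinery that copies DNA in S phase: the proteins that mark and license origins, the replicative helicase and its activators, the polymerases with their clamp and clamp loader, the enzymes that join lagging-strand fragments, the enzymes that make the building blocks of DNA, the factors that restore chromatin behind the fork, and regulators of S-phase entry. They were chosen by name from textbook roles, with earlier results of these data known. Each was found by its Ensembl identifier, 44 of the 34866 genes in the deposited tables. RNA sequencing was done on cultured mouse primary macrophages, phagocytes of the innate immune system, in a study of how limited oxygen affects their metabolism and their uptake of dying cells. Each of 3 groups had 3 biological replicates: cells held for 7 days at standard oxygen, cells given 1% oxygen for 3 hours after a time at standard oxygen (acute hypoxia), and cells held for 7 days at 1% oxygen (chronic hypoxia). The medium of every group was alpha-MEM with serum, to which supernatant of L929 fibroblasts was added, a source of the macrophage growth factor M-CSF. The labels name no altered gene and no agent besides oxygen, and they give no strain, sex or age.

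Before S phase, the origin recognition complex, CDC6 and CDT1 load the MCM helicase on DNA, a step called licensing. Cyclin E with its kinase then promotes firing, CDC45 and the GINS complex join the helicase, and primase and the polymerases, held in place by the sliding clamp PCNA, copy both strands. Many of these genes are transcribed at the end of G1 under E2F transcription factors, and their mRNA is abundant in dividing cells. Macrophages grown in conditioned medium of this kind can divide in culture.

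The start regions of the genes are shown first, because E2F factors are known regulators of these genes and the sequences were not used to choose them. RefSeq windows of 250 bases before to 50 bases after a transcription start, in build GRCm38.p6, were found for 36 of the 44 genes (41 windows). The letters TTTCCCGC, TTTGGCGC, TTTCGCGC or TTTGCCGC, on either strand, were in 13 of the 41 windows (31.7%) and in 744 of 32851 windows of all genes (2.26%). The matches that lie before the start, found in 9 genes, are printed with up to 9 flanking bases, 5′ to 3′ on the strand of the gene, with the matched letters in capitals. In Mcm5 and in the distal Mcm6 stretch 2 matches on opposite strands overlap, so the capitals run longer.
Mcm5: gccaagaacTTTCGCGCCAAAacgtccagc
Mcm6 distal: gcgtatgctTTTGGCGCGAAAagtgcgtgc
Mcm6 proximal: ttggacgggTTTGGCGCgaagtagct
Mcm7: tttcgaaccGCGGGAAAcagggtgtc
Pola1: catcacaggGCGCCAAAtgcactccc
Rfc3: gtcgcacgcTTTCGCGCtc
Uhrf1: cgagtcgggTTTCGCGCgcccaggcg
Orc1: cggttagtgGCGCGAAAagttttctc
Cdc6: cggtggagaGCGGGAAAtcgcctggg
Gins3: gagtgcggcGCGGGAAAgcgagtttg
The Mcm5 stretch is chr8:75109347-75109376 on the plus strand, and the matched letters begin 153 bases before the start. The Mcm6 stretches are chr1:128359795-128359824 and chr1:128359736-128359761 on the minus strand, beginning 110 and 47 bases before the start. The others are chr5:138172032-138172057 (minus), chrX:93632277-93632302 (minus), chr5:151651209-151651227 (minus), chr17:56304119-56304144 (plus), chr4:108579418-108579443 (plus), chr11:98908004-98908029 (plus) and chr8:95633509-95633534 (plus). In the GENCODE annotation, the gene models of Mcm7, Rfc3, Uhrf1, Orc1, Cdc6 and Gins3 begin upstream of these RefSeq starts and hold the stretch in whole or in part. Mcm3, Pold1, Cdt1 and Lig1 had matches after the start only. The windows of Pcna, Tk1, Dut, Rrm1, Rrm2 and E2f1 held none of these letters. A match is a description of letters and not a measured binding site.

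Expression is given in TPM, which expresses a gene as its part of all transcripts after correction for length, so levels can be compared between genes. All 44 genes reached 1 TPM in every library. Their means over the 9 libraries ran from 2.67 to 292 TPM with a median of 14.6 TPM, and Pcna was the highest. The sequencing depth is unknown because TPM keeps no record of it, and the libraries had 10724 to 11208 genes at 1 TPM or more. Samples of different groups share digits in their labels, here called codes X, Y and Z, whose meaning is not stated, and each group has 1 library of each code. The 3 libraries of code Z stood apart from the other 6 in every group. Mertk, a receptor for dying cells, was 2.21 to 3.37 TPM in code Z and 21.8 to 33.3 TPM in codes X and Y. Because samples of the same code deviated together, each comparison is given both without and with the code as a block. In the text below, 3 values for a group are always in the order X, Y, Z.

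All 10 macrophage markers reached 1 TPM in each group. None of the 7 fibroblast, 5 B cell or 5 mast cell markers reached 1 TPM in any library. Among 11 markers of granulocytes and their progenitors 6 reached it, and their summed TPM ran from 904 to 1600 in the standard group, from 944 to 1912 in the acute group and from 268 to 591 in the chronic group, nearly all from S100a8. Of 7 stem and early progenitor markers 1 (Cd33) reached 1 TPM, with a summed level of 160 to 277, 131 to 277 and 151 to 306 TPM in the 3 groups, and 1 of 7 dendritic cell markers, 1 of 5 erythroid markers and 1 of 6 T or NK cell markers did so, with sums of at most 3.05, 1.71 and 1.95 TPM. The part of these markers in the results was not tested. In such bulk libraries, a change in the share of cells in S phase and a change in RNA of these genes per cell cannot be told apart, so a higher value can stand for more such cells or for more RNA in each.

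Most replication genes had higher mean levels after 7 days at 1% oxygen than in standard oxygen, and the median difference was positive in each of the 7 roles. None of the 44 passed the main test, which has no block, and 16 passed when the sample code was used as a block. The median log2 fold change of the 44 genes was 0.44, against 0.16 over all 11067 genes tested, and 41 of the 44 values were positive, against 72% of all genes. The largest were those of Tk1 (1.11), Pold1 (0.96), Orc6 (0.80), Dut (0.77) and Prim1 (0.75), while Cdt1, Pcna and Gins2 were the 3 with negative values. Each fold change was taken on log2(TPM + 1), so that of a low gene is understated.

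With the moderated test of limma and no block, 0 of the 44 genes passed an adjusted p of 0.05 (298 of 11067 genes did, 2.69%), and 16 (36.4%) passed an unadjusted p of 0.05, with 15 positive values and 1 negative one, against 22.9% of all genes. With the sample code as a block, 16 of the 44 (36.4%) passed, all of them higher, against 18.4% of all genes in either direction and 15.1% in the higher direction. These 16 were Orc6, Mcm2, Mcm4, Mcm5, Mcm6, Mcm7, Pola1, Prim1, Pold1, Rfc3, Lig1, Rpa1, Rrm1, Tk1, Dut and Uhrf1. With the replicate number of the titles as the block, 0 of the 44 passed. "Rose" is used below for a gene that passed with the code block, which was an alternative to the main test, because samples of the same code deviated together and those of the same title number did not in every pair.

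The count depended on the libraries and on the scaling. Without code Z and with the block, 26 genes were called higher and 2 lower (35% of all genes called), without code X 1 gene was called (1.86% of all genes), and without code Y none was (0.162%), each from 2 pairs of libraries. TPM was also rescaled so that the median ratio between libraries was 1. The median of all genes then moved from 0.16 to -0.0023 and that of the 44 genes to 0.29. The values of Gins3, Gins4, Prim2, Rfc2, Chaf1b and Ccne1 turned negative, which left 35 positive, and with the code block 8 genes were called higher (5.54% of all genes) and Cdt1 lower (5.94%). The 8 were Orc6, Mcm7, Pold1, Lig1, Rrm1, Tk1, Dut and Uhrf1.

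In TPM that was not rescaled, most ratios were also above 1 library by library. Within code X the median ratio of chronic hypoxia to standard oxygen over the 44 genes was 1.45, against 1.13 over all genes. There 40 ratios (90.9%) were above 1, against 68.9% of all genes. Within code Y the median ratio was 1.37, against 1.14, with 39 (88.6%) above 1, against 69.8% of all genes. Within code Z it was 1.25, against 1.12, with 40 (90.9%) above 1, against 66.7% of all genes. In 36 of the 44 genes (81.8%) the chronic library was the higher in all 3 pairs of the same code, against 46.9% of all genes, and Cdt1 was the lower in all 3 (12.6% of all genes were). In 17 genes (38.6%) every chronic value lay above every standard value, against 24.2% of all genes. Code Z of chronic hypoxia held the highest of the 9 values in 36 genes. All genes tested were also highest by median in that library, at log2 0.18 above their means over the 9 libraries.

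**Figure D1:**
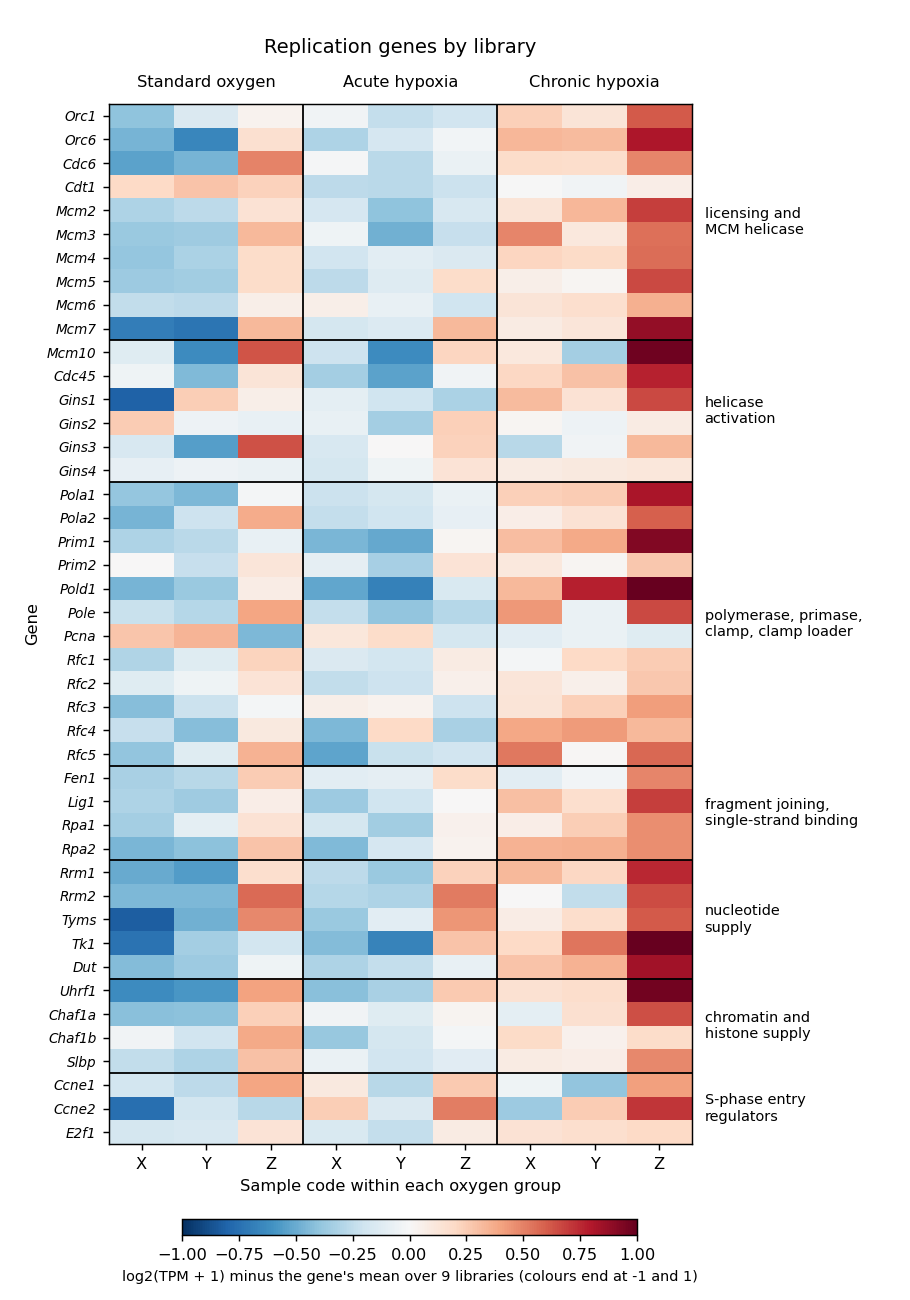
Each row is 1 of the 44 replication genes, grouped by role, and each column 1 of the 9 libraries, by oxygen group and sample code. Colour gives log2(TPM + 1) minus the gene's mean over the 9 libraries, red above and blue below it, and the chronic hypoxia libraries are mostly red, that of code Z most of all, while Cdt1 and Pcna show another pattern.

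Of the 10 genes of origin recognition, licensing and the MCM helicase, 6 rose in chronic hypoxia against standard oxygen (15.1% of all genes did). The median log2 fold change was 0.50. After rescaling with the block, only Orc6 and Mcm7 of the 6 were still called. Of those 6, 5 are subunits of the helicase. Mcm6 (chr1:128331590-128359664) was the most abundant gene of this group, at 34.7, 34.4 and 43.2 TPM in standard oxygen, 43.2, 39.2 and 35.8 in acute hypoxia and 45.4, 46.5 and 53.2 in chronic hypoxia. The chronic values lay above all others, and the log2 fold change was 0.37 ± 0.07 (SE, code block), with an adjusted p of 0.0305 with the block and 0.164 without it. Mcm7 (chr5:138164583-138172422) was 12.1, 11.8 and 25.5 TPM in standard oxygen, 17.8, 18.2 and 25.6 in acute hypoxia and 21.4, 21.99 and 37.9 in chronic hypoxia. Code Z was high in every group, so the groups overlapped, yet the chronic library was the highest within each code, and the log2 fold change was 0.73 ± 0.09 (adjusted p = 0.0154 with the block, 0.27 without). In Mcm7, 12.6% of exon bases are overlapped by other genes, among them the microRNA genes Mir25 and Mir93 on the same strand. Of its 75-base stretches 20.5% also occur, read on either strand, in other genes. Ap4m1, which overlaps it on the opposite strand, is among those genes, and the level of Mcm7 is uncertain.

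The other helicase subunits gave smaller differences than Mcm7. Mcm2 was 10.9, 11.2 and 15.2 TPM in standard oxygen, 12.1, 10.1 and 12.1 in acute hypoxia and 15.1, 17.5 and 22.7 in chronic hypoxia. Mcm4 was 11.4, 12.01 and 17.4 TPM in standard oxygen, 13.2, 14.03 and 13.7 in acute hypoxia and 17.8, 17.5 and 22.9 in chronic hypoxia. Mcm5 was 18.8, 19.1 and 27.9 TPM in standard oxygen, 20.3, 22.4 and 27.97 in acute hypoxia and 25.6, 24.9 and 39.3 in chronic hypoxia. Their log2 fold changes were 0.53, 0.50 and 0.42 (adjusted p = 0.0228, 0.0267 and 0.0256 with the block), and only in Mcm4 did no chronic value fall within the standard range. Mcm3 was 18.97, 19.1 and 31.3 TPM in standard oxygen, 23.99, 17.5 and 21.01 in acute hypoxia and 35.1, 26.8 and 36.8 in chronic hypoxia. It did not pass against standard oxygen (log2 0.51, adjusted p = 0.0623 with the block) but rose against acute hypoxia (log2 0.63, 0.0167), where the groups did not overlap.

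Orc6, the smallest subunit of the origin recognition complex (chr8:85299632-85308278), had the largest difference of the licensing genes. It was 9.88, 8.54 and 15.8 TPM in standard oxygen, 11.1, 12.4 and 13.8 in acute hypoxia and 17.9, 17.7 and 25.3 in chronic hypoxia. Every chronic value lay above every other value, with a log2 fold change of 0.80 ± 0.10 (adjusted p = 0.0148 with the block, 0.13 without). Orc1, a subunit that binds ATP, was between 1.72 and 4.49 TPM and Cdc6, which helps to load the helicase, between 2.15 and 5.42 TPM, with log2 fold changes of 0.50 and 0.45 that did not pass.

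Cdt1 (chr8:122568015-122573554), the loading factor that is destroyed once S phase begins, had the lowest value of the 44 genes in both hypoxia groups against standard oxygen. It was 31.5, 33.5 and 32.1 TPM in standard oxygen, 22.6, 22.4 and 23.4 in acute hypoxia and 27.2, 26.6 and 28.6 in chronic hypoxia. The 3 groups did not overlap: standard oxygen was highest, acute hypoxia lowest and chronic hypoxia between them. Against standard oxygen the log2 fold change was -0.49 ± 0.07 in acute and -0.23 ± 0.07 in chronic hypoxia (SE, code block), and neither passed in the fit of those 6 libraries (adjusted p = 0.088 and 0.0953 with the block, 0.166 and 0.207 without). In a fit of all 9 libraries with the code block both passed (adjusted p = 0.0197 and 0.0464), where 1.84% and 26.3% of all genes were called. No part of the Cdt1 exons is overlapped by another gene.

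**Figure D2:**
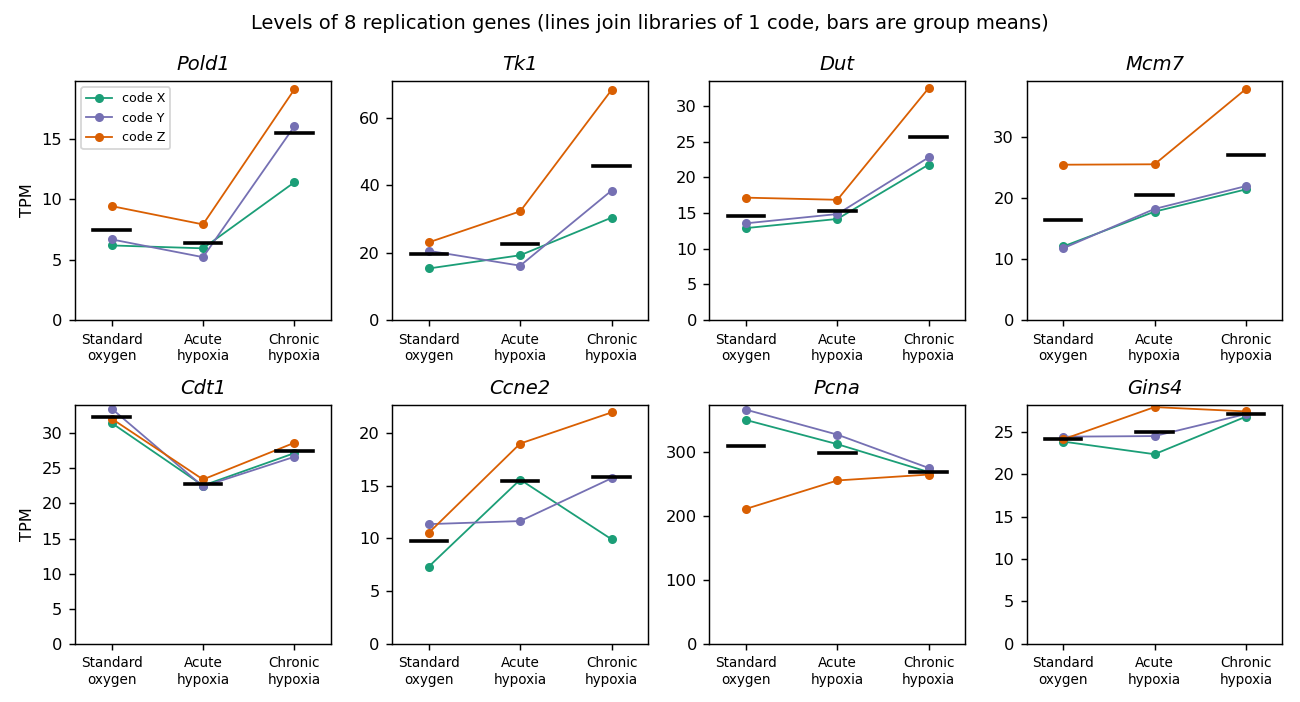
Points give the TPM of 8 genes in each of the 9 libraries, by oxygen group, with lines joining libraries of the same sample code and black bars at the group means. Pold1, Tk1, Dut and Mcm7 are highest in chronic hypoxia within every code, Cdt1 falls into 3 separate groups with standard oxygen the highest, Ccne2 is higher in acute than in standard oxygen, Pcna of code Z runs opposite to the other codes, and Gins4 lies between 22.4 and 27.9 TPM throughout.

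The genes that activate the helicase had the lowest median of the 7 roles. None of the 6 passed in chronic hypoxia against standard oxygen, and that median log2 fold change was 0.22, against 0.16 over all genes. Gins4 was the most abundant, at 23.9, 24.4 and 24.1 TPM in standard oxygen, 22.4, 24.5 and 27.9 in acute hypoxia and 26.8, 27.1 and 27.4 in chronic hypoxia. Its chronic values lay above its standard values by a small margin (log2 0.16 ± 0.07, adjusted p = 0.165 with the block), and after rescaling the sign turned (-0.01). Gins1 was 5.08, 11.6 and 10.1 TPM in standard oxygen, 8.94, 8.27 and 7.56 in acute hypoxia and 12.2, 10.8 and 15.8 in chronic hypoxia. Its log2 fold change was 0.54 ± 0.24, and the codes differed, with a ratio of 2.41 within code X, where the standard value was low, and 0.931 within code Y.

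Cdc45 (chr16:18780447-18811987), which completes the active helicase with MCM and GINS, was 6.51, 4.72 and 7.47 TPM in standard oxygen, 5.13, 4.37 and 6.58 in acute hypoxia and 7.93, 8.504 and 12.2 in chronic hypoxia. Its chronic values lay above all standard and all acute values. It rose against acute hypoxia (log2 0.72 ± 0.12, adjusted p = 0.0229 with the block, 0.134 without) and missed the threshold against standard oxygen (0.54 ± 0.13, 0.0539 with the block). Mcm10, which stabilises the helicase, passed between sample codes but in no oxygen comparison, at 2.29 to 3.70 TPM in codes X and Y of standard oxygen and 6.89 TPM in code Z. Gins2 and Gins3 had log2 fold changes of -0.03 and 0.03, and in Gins2 67.3% of exon bases are shared with Gse1 on the opposite strand, so that its reads cannot be told apart if strand was not used in counting.

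Among the 12 genes of polymerases, primase, clamp and clamp loader 4 rose in chronic hypoxia against standard oxygen (15.1% of all genes did). The median log2 fold change was 0.40. After rescaling with the block, only Pold1 of the 4 was still called. Pold1 (chr7:44532746-44548849), the catalytic subunit of the lagging-strand polymerase delta, had the largest value. It was 6.17, 6.67 and 9.42 TPM in standard oxygen, 5.93, 5.199 and 7.91 in acute hypoxia and 11.4, 16.02 and 19.1 in chronic hypoxia. The chronic values lay above all others. The log2 fold change was 0.96 ± 0.11 against standard oxygen and 1.16 ± 0.15 against acute hypoxia (adjusted p = 0.0129 and 0.0141 with the block, 0.0809 and 0.0687 without). Pole, the catalytic subunit of the leading-strand polymerase epsilon, gave 0.38 and 0.65 and did not pass.

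The primase and polymerase alpha start each new strand. Prim1, the catalytic primase subunit (chr10:128015168-128030037), was 3.85, 3.996 and 4.72 TPM in standard oxygen, 3.39, 3.22 and 5.09 in acute hypoxia and 6.44, 6.83 and 10.4 in chronic hypoxia. Pola1, the catalytic subunit of polymerase alpha (chrX:93304767-93632155), was 2.55, 2.404 and 3.59 TPM in standard oxygen, 2.99, 3.12 and 3.44 in acute hypoxia and 4.47, 4.52 and 7.19 in chronic hypoxia. In both genes every chronic value lay above every other value, and the log2 fold changes against standard oxygen were 0.75 ± 0.13 and 0.72 ± 0.13 (adjusted p = 0.0258 and 0.0267 with the block, 0.103 and 0.134 without). Their partners in the same complex gave lower values, 0.16 for Prim2 and 0.37 for Pola2, and did not pass.

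Pcna (chr2:132249162-132253314), the sliding clamp, was the most abundant replication gene and did not follow the others. It was 349.7, 366 and 211 TPM in standard oxygen, 312, 327 and 255 in acute hypoxia and 268, 275 and 264 in chronic hypoxia. The chronic values lay inside the range of the other groups, and code Z was low in standard oxygen where codes X and Y were high. The log2 fold change was -0.16 ± 0.17 against standard oxygen (adjusted p = 0.526 with the block), the ratio being 0.767 and 0.751 within codes X and Y and 1.25 within code Z. Without code Z, Pcna was called lower. In Pcna 23.7% of 75-base stretches also occur in the pseudogene Pcna-ps2, so its level is uncertain.

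The clamp loader subunits Rfc1 to Rfc5 had log2 fold changes of 0.21, 0.16, 0.48, 0.56 and 0.43, and Rfc3 passed. Rfc3 (chr5:151642756-151651242) was 7.82, 9.21 and 10.7 TPM in standard oxygen, 11.3, 11.2 and 9.28 in acute hypoxia and 11.97, 13.02 and 14.9 in chronic hypoxia. The chronic values lay above all others by a narrow margin, with an adjusted p of 0.0276 with the block and 0.133 without it.

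Lagging-strand fragments are joined by FEN1 and DNA ligase 1, and RPA covers the single strands. Lig1 and Rpa1 rose in chronic hypoxia against standard oxygen (15.1% of all genes did), and Rpa2 rose against acute hypoxia (12.1% of all genes did). After rescaling with the block, Lig1 was still called against standard oxygen and Rpa1 was not, and Rpa2 was no longer called against acute hypoxia. Lig1 (chr7:13277283-13311433) was 14.1, 13.6 and 18.6 TPM in standard oxygen, 13.5, 15.2 and 17.7 in acute hypoxia and 21.9, 19.98 and 29.2 in chronic hypoxia. Rpa1 (chr11:75298166-75348324), the highest of these 4 genes, was 42.01, 50.1 and 59.3 TPM in standard oxygen, 47.2, 41.8 and 55.2 in acute hypoxia and 56.2, 63.6 and 74.4 in chronic hypoxia. Rpa2 (chr4:132768332-132778752) was 9.99, 10.4 and 17.4 TPM in standard oxygen, 10.1, 12.4 and 14.5 in acute hypoxia and 18.2, 18.3 and 19.9 in chronic hypoxia. The chronic values of Lig1 and Rpa2 lay above all others, while those of Rpa1 overlapped standard oxygen. The log2 fold changes against standard oxygen were 0.59 ± 0.08, 0.36 ± 0.07 and 0.58 ± 0.15 (adjusted p = 0.0162, 0.0282 and 0.0588 with the block). Fen1 gave 0.24 and did not pass, and 84.2% of its exon bases are overlapped by genes on the opposite strand.

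Genes of nucleotide supply had the highest median of the 7 roles, a log2 fold change of 0.73 in chronic hypoxia against standard oxygen. Of the 5 genes 3 rose (15.1% of all genes did). Tk1 (chr11:117815526-117826092), the thymidine kinase of dividing cells, was 15.3, 20.6 and 23.1 TPM in standard oxygen, 19.2, 16.1 and 32.3 in acute hypoxia and 30.4, 38.5 and 68.3 in chronic hypoxia. All chronic values lay above all standard values, and the chronic value of code Z was the highest of the 9. The log2 fold change of 1.11 ± 0.15 was the largest of the 44 genes (adjusted p = 0.0169 with the block, 0.108 without). Dut (chr2:125247190-125258608), which keeps uracil out of DNA by breaking down dUTP, was 12.9, 13.6 and 17.2 TPM in standard oxygen, 14.2, 14.9 and 16.9 in acute hypoxia and 21.8, 22.8 and 32.5 in chronic hypoxia. Its chronic values lay above all others, and its log2 fold change was 0.77 ± 0.08 (adjusted p = 0.0122 with the block, 0.0869 without).

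Ribonucleotide reductase makes the deoxynucleotides from a large and a small subunit. Rrm1, the large subunit (chr7:102441695-102469771), was 19.2, 18.5 and 31.2 TPM in standard oxygen, 22.9, 21.1 and 32.6 in acute hypoxia and 34.98, 32.1 and 47.4 in chronic hypoxia. Rrm2, the small subunit whose level is tied to S phase (chr12:24708241-24714146), was 32.9, 32.9 and 67.2 TPM in standard oxygen, 36.8, 36.3 and 65.3 in acute hypoxia and 45.2, 37.8 and 71.4 in chronic hypoxia. Rrm1 rose against standard oxygen (log2 0.73 ± 0.08, adjusted p = 0.0131 with the block) with no overlap of the groups, whereas Rrm2 was set apart by code, with every code Z value above every value of the other codes, and its log2 fold change was 0.24 ± 0.09 (adjusted p = 0.133). The difference between the 2 subunits was not tested. Tyms, thymidylate synthase, gave 0.56 and did not pass.

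Of the 4 genes of chromatin and histone supply Uhrf1 rose (15.1% of all genes did). Uhrf1 (chr17:56303321-56323486), which guides the copying of DNA methylation behind the fork, was 11.3, 11.7 and 24.2 TPM in standard oxygen, 13.3, 14.2 and 21.9 in acute hypoxia and 20.2, 20.5 and 36.3 in chronic hypoxia. The groups overlapped because of code Z, but the chronic library was the highest within each code (log2 0.70 ± 0.09, adjusted p = 0.0148 with the block, 0.286 without). In Uhrf1 11.3% of 75-base stretches also occur in Gm5648. Slbp, which binds the end of histone mRNA and was the most abundant of the 4, was 21.2, 20.3 and 31.3 TPM in standard oxygen, 24.1, 22.1 and 23.4 in acute hypoxia and 26.8, 26.6 and 35.6 in chronic hypoxia. It did not pass (log2 0.29), and neither did the chromatin assembly subunits Chaf1a (0.43) and Chaf1b (0.09). In Chaf1a 52.5% of exon bases are overlapped by Ubxn6 on the opposite strand. Of its 75-base stretches 47.2% also occur, read on either strand, in other genes. Ubxn6 is among those genes, so these shares are not separate, and the level of Chaf1a is uncertain.

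None of the 3 regulators of S-phase entry passed. E2f1, a transcription factor of the E2F family, was 20.1, 20.3 and 25.3 TPM in standard oxygen, 20.4, 19.3 and 24.3 in acute hypoxia and 25.3, 25.8 and 26.4 in chronic hypoxia. Ccne2, a cyclin E gene, was 7.32, 11.3 and 10.5 TPM in standard oxygen, 15.6, 11.6 and 18.98 in acute hypoxia and 9.905, 15.7 and 21.9 in chronic hypoxia. E2f1 had a narrow range, with chronic values at its top (log2 0.24), and Ccne2 was higher in both hypoxia groups (log2 0.61 in acute and 0.61 in chronic hypoxia, adjusted p = 0.302 and 0.0533 with the block). The other cyclin E gene, Ccne1, gave 0.01 in chronic hypoxia. In Ccne2 17.4% of exon bases are shared with Ints8 on the opposite strand.

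**Figure D3:**
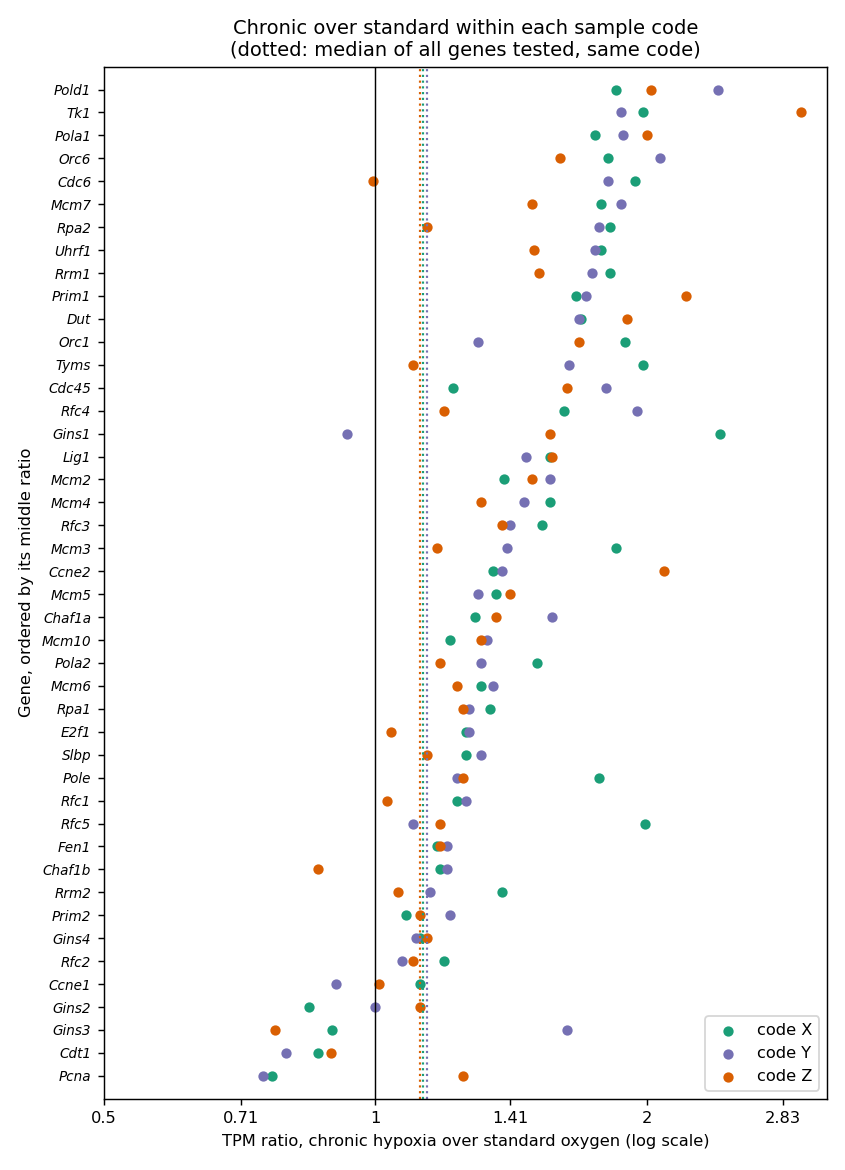
Each point is the TPM ratio of chronic hypoxia to standard oxygen for 1 gene within 1 sample code, on a log axis, with genes ordered by their middle ratio and dotted lines at the median ratio of all genes tested (1.13, 1.14 and 1.12 for codes X, Y and Z). In 36 of the 44 genes all 3 points lie above 1, Cdt1 has all 3 below 1, and Pcna has 1 point above and 2 below.

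After 3 hours at 1% oxygen these genes had no common direction. None of the 44 passed in acute hypoxia against standard oxygen, with no block (3 of 10987 genes did, 0.0273%) or with the code block (0.71%). At an unadjusted p of 0.05, 2 genes (4.55%) passed without the block, against 7.14% of all genes, and 3 (6.82%) passed when it was used, against 14.2%. The median log2 fold change was 0.01, as it was over all genes, and 23 values were positive. Single libraries moved these values: without standard oxygen replicate 2, 34 values were positive with a median of 0.16, without standard oxygen replicate 1, 13 were positive with a median of -0.08, without standard oxygen replicate 3 or acute hypoxia replicate 3, 16 were positive with medians of -0.07 and -0.08, and without code Z, 27 were positive with a median of 0.13. Among the 12 polymerase, primase, clamp and clamp loader genes 10 values were negative, the lowest being Pole (-0.27), and among the 5 nucleotide supply genes all were positive, the highest being Tyms (0.26). Those counts carry no test, and some of the signs turned with 1 library left out. Without standard oxygen replicate 2, Pola2, Prim2, Rfc1 and Rfc4 turned positive. Without standard oxygen replicate 1, Tyms, Tk1, Rrm2 and Dut turned negative and Pcna turned positive. The codes differed: 28, 25 and 10 of the 44 ratios were above 1 within codes X, Y and Z. Over all genes it was 56.2%, 50.1% and 49.8%. Ccne2 was the only gene with all 3 acute values above all standard values (7.63% of all genes were) and Cdt1 the only one with all 3 below (4.85%). Without code Z and with no block, Mcm7 was called higher and Cdt1 lower (2.95% of all genes called).

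Chronic hypoxia was also compared with acute hypoxia, which shares the chronic libraries with the comparison above. The median log2 fold change of the 44 genes was 0.41, against 0.14 over all genes, and 40 were positive. With no block 0 of 44 passed (77 of 11087 genes did, 0.695%), and at an unadjusted p of 0.05 it was 23 (52.3%), against 20.8% of all genes. The code block, which for these groups is also the pairing by replicate number, gave 14 genes that rose (31.8%), against 15.5% of all genes in either direction and 12.1% in the higher direction. They were Orc6, Mcm2, Mcm3, Mcm4, Cdc45, Prim1, Pold1, Lig1, Rpa1, Rpa2, Rrm1, Tk1, Dut and Uhrf1. In 26 of the 44 genes (59.1%) all chronic values lay above all acute values, against 22.3% of all genes. Without code Z and with the block 14 were called higher and 1, Pcna, lower (25.1% of all genes called), without code X none was (0.0628%), and without code Y 7 were, all higher (4.61%). After rescaling with the block 9 were called, all higher (4.73% of all genes). The 9 were Orc6, Mcm3, Cdc45, Prim1, Pold1, Rrm1, Tk1, Dut and Uhrf1. By group means, 20 genes (45.5%) were lowest in standard oxygen, intermediate in acute hypoxia and highest in chronic hypoxia, against 33.6% of all genes.

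Replication genes also differed between the sample codes. In an F test across the 3 codes with the oxygen group in the model (limma, all 9 libraries), 16 of the 44 genes (36.4%) passed, against 24.3% of all genes, and in all 16 code Z was the highest (17.6% of all genes passed in that way). Code Z was above code X in 43 genes and above code Y in 42, and the median difference of Z and X was 0.37 on the log2 scale, against 0.16 over all genes. Pcna was lower in code Z than in both other codes, by log2 values of -0.35 and -0.40 (adjusted p = 0.119), and Rfc4 was lower than in code Y only, by -0.03. Rrm2 differed most surely, by 0.82 and 0.91 (adjusted p = 0.00123), and Uhrf1 by 0.84 and 0.79 (0.00238). After rescaling 8 genes (18.2%) passed, against 19.2% of all genes, so that the share was no longer above that of all genes. Between codes X and Y alone none passed, and 0.303% of all genes did.

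Genes of the same pathway outside the 44 were counted in the same way. Of 36 other replication genes, 11 rose in chronic hypoxia against standard oxygen with the code block and none fell. Of all genes, 15.1% were called higher and 3.3% lower. The median log2 fold change was 0.36, against 0.16 over all genes. Without a block none passed. After rescaling with the block 2 did, when 5.54% of all genes were called higher and 5.94% lower. Pole2, a subunit of polymerase epsilon, was 3.32, 2.204 and 3.79 TPM in standard oxygen, 5.59, 3.41 and 3.65 in acute hypoxia and 5.69, 7.61 and 6.72 in chronic hypoxia (log2 0.91, adjusted p = 0.0409). Asf1b, a histone chaperone, was 19.1, 17.1 and 30.5 TPM in standard oxygen, 17.8, 19.1 and 25.7 in acute hypoxia and 34.1, 34.9 and 49.95 in chronic hypoxia (log2 0.83, adjusted p = 0.0122). Both were higher in each chronic library than in the standard library of the same code. Cdc7, the kinase that triggers origin firing, was called against acute hypoxia (log2 0.91, adjusted p = 0.0318) at 0.968 to 5.04 TPM, and Rpa3, the small RPA subunit, against both groups (0.78 and 0.74).

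Of 18 other nucleotide supply genes 4 rose with the block (15.1% of all genes did) and none without it. The median was 0.25, against 0.16 over all genes. After rescaling with the block 1 rose (5.54% of all genes did). Dck, deoxycytidine kinase, gave 0.65 (adjusted p = 0.0207) and Dtymk, thymidylate kinase, 0.48 (0.0296). Gart, of purine synthesis, and Shmt1, of folate metabolism, were called against acute hypoxia only (0.54 and 0.76, adjusted p = 0.0389 and 0.0411).

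Among 21 tested E2F, RB, cyclin and CDK genes of G1 and S, 9 rose with the block (15.1% of all genes did) and none without it. The median was 0.26, against 0.16 over all genes. After rescaling with the block 4 rose (5.54% of all genes did). Ccna2, the cyclin of S phase and G2, was 8.71, 7.48 and 16.3 TPM in standard oxygen, 10.8, 9.07 and 17.6 in acute hypoxia and 23.96, 20.02 and 37.1 in chronic hypoxia. It was higher in each chronic library than in either other library of its code, with a log2 fold change of 1.27 ± 0.09 (adjusted p = 0.00689 with the block, 0.0973 without). E2f8, a repressive E2F, gave 0.86 (0.0169), Ccnd2 0.92 (0.0201) and E2f2 0.59 (0.0207). Ccnd1, a cyclin of G1 that was abundant at 162 to 286 TPM, gave 0.07, and Myc, a growth factor-responsive transcription factor, 0.20. Neither passed.

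Mitosis genes, which act after S phase, were higher in chronic hypoxia as well. Their median log2 fold change in chronic hypoxia against standard oxygen was 1.13. With the block 19 of 22 rose (15.1% of all genes did), none without it, and 19 after rescaling with the block (5.54% of all genes). Mki67, a marker of dividing cells, was 4.81, 4.68 and 10.4 TPM in standard oxygen, 6.37, 6.16 and 14.3 in acute hypoxia and 14.3, 15.5 and 28.9 in chronic hypoxia. Ccnb2, a mitotic cyclin, was 4.99, 5.28 and 10.3 TPM in standard oxygen, 5.19, 5.74 and 17.4 in acute hypoxia and 21.03, 21.8 and 47.2 in chronic hypoxia. In both, code Z was the highest library of each group and the chronic library the highest of each code, with log2 fold changes of 1.44 ± 0.09 and 1.94 ± 0.09 (adjusted p = 0.00689 and 0.00465 with the block, 0.0925 and 0.0538 without). Kif23, Cdc20 and Plk1, of spindle assembly and cell division, gave 1.81, 1.60 and 1.49. Within codes X, Y and Z the median ratio of the 22 genes was 2.65, 2.33 and 2.43, against 1.45, 1.37 and 1.25 for the 44 replication genes, and whether the lists differ was not tested.

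**Figure D4:**
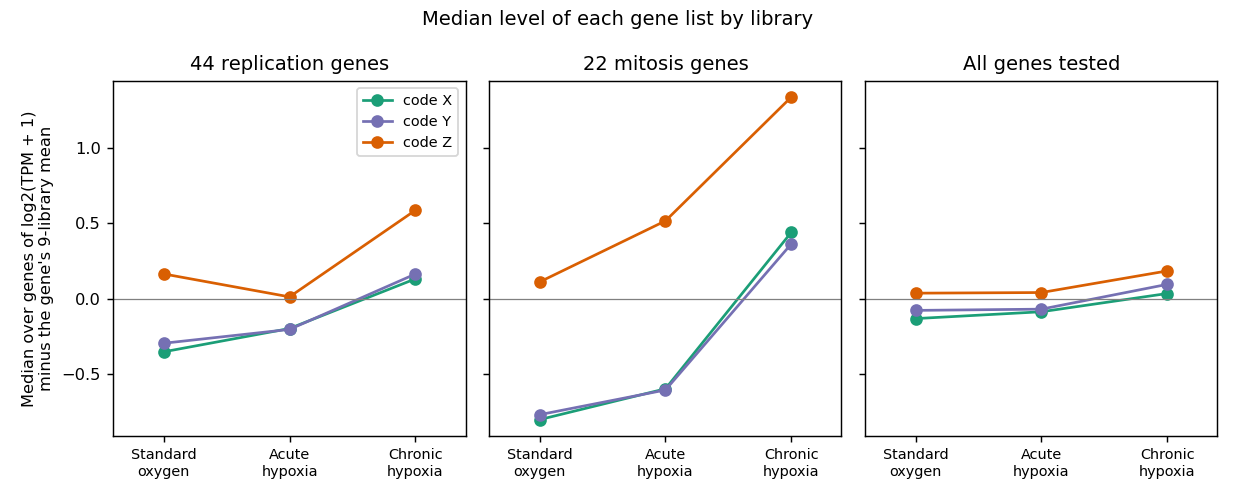
Points give, for each library, the median over genes of log2(TPM + 1) minus the gene's 9-library mean, for the 44 replication genes, 22 mitosis genes and all genes tested, with lines joining libraries of the same code. The replication genes run from -0.35, -0.30 and 0.16 in standard oxygen to 0.13, 0.16 and 0.59 in chronic hypoxia (codes X, Y, Z), the mitosis genes from -0.81, -0.77 and 0.11 to 0.44, 0.36 and 1.34, and all genes from -0.13, -0.08 and 0.04 to 0.03, 0.09 and 0.18.

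Some genes that restrain the cell cycle rose as well, 2 of them already at 3 hours. Of 15 CDK inhibitors and antiproliferative genes, 3 rose in chronic hypoxia against standard oxygen without a block (2.1% of all genes did). With the code block 6 rose and 1 fell, against 15.1% and 3.3% of all genes. Cdkn1b, which encodes the CDK inhibitor p27, was 8.17, 8.45 and 8.52 TPM in standard oxygen, 18.7, 20.1 and 24.3 in acute hypoxia and 22.6, 24.7 and 16.3 in chronic hypoxia. Mxi1, which opposes MYC, was 20.6, 21.02 and 22.2 TPM in standard oxygen, 49.9, 47.5 and 47.6 in acute hypoxia and 35.2, 31.2 and 33.8 in chronic hypoxia. All hypoxic values lay above all standard values in both genes. The log2 fold changes of Cdkn1b were 1.22 ± 0.10 in acute and 1.22 ± 0.14 in chronic hypoxia (adjusted p = 0.0568 and 0.0272 without a block, 0.0253 and 0.0134 with it), and those of Mxi1 1.15 ± 0.07 and 0.63 ± 0.08 (0.0244 and 0.0362 without).

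Ccng2, an atypical cyclin of resting cells, gave 0.73 in chronic hypoxia (0.0273 without a block), and Cdkn2c, an inhibitor of CDK4 and CDK6, 1.09 (adjusted p = 0.0195 with the block, 0.198 without). Ccng2 was 16.74, 19.04 and 17.72 TPM in standard oxygen and 28.97, 33.42 and 48.38 in acute hypoxia. Its ratio of group means to standard oxygen was 2.07 in acute and 1.7 in chronic hypoxia. Cdkn1a, which encodes p21 and binds PCNA, was lower in chronic than in acute hypoxia (log2 -0.39, adjusted p = 0.0226 with the block, 0.442 without) and gave -0.17 against standard oxygen.

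A list made for histone genes had 4 tested members, 2 of which (H1f0 and H2afz) are replacement histones rather than replication-dependent ones. With the block H2afz (0.82), H1f0 (0.68) and H2afx (0.64) rose (15.1% of all genes did). H1f0, a linker histone of resting cells, also passed without the block (adjusted p = 0.0437), where 2.1% of all genes were called higher. As points of reference, Arg1, arginase 1, was at most 0.713 TPM in standard oxygen, at most 4.34 TPM in acute hypoxia and up to 176 TPM in chronic hypoxia (log2 6.53, adjusted p = 2.03e-05 without a block). Csf1r, the receptor for the growth factor of macrophages, was 439, 457 and 513 TPM in standard oxygen, 464, 457 and 489.6 in acute hypoxia and 741, 778 and 579 in chronic hypoxia (log2 0.56, adjusted p = 0.0541 with the block). Both were highest in the chronic libraries within each code. The 10 macrophage markers did not move together in chronic hypoxia against standard oxygen: 3 values were positive and 7 negative, none passed without a block, and with the code block Itgam passed as higher (log2 0.51, adjusted p = 0.0413) and Aif1 as lower (-1.25, 0.00855).

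The 36 genes with a start region were also set beside their chronic hypoxia result. Of the 13 whose window holds the E2F letters 8 rose with the block, with a median log2 fold change of 0.50 and a range of -0.23 (Cdt1) to 0.96 (Pold1). Of the 23 without them 7 rose, with a median of 0.43 and a range of -0.16 (Pcna) to 1.11 (Tk1). Of all genes, 15.1% rose. After rescaling with the block, Mcm7, Pold1, Lig1 and Uhrf1 of the 8 were still called higher (5.54% of all genes were). Of the 7, Orc6, Rrm1, Tk1 and Dut were, while Cdt1, which holds the letters, was called lower. These counts carry no test, and genes with and without the letters are found at both ends. Mcm5, Mcm6, Mcm7, Pola1, Rfc3 and Uhrf1, printed above, are among the genes that rose, while Orc1, Cdc6 and Gins3 did not pass. Of these printed genes only Mcm7 and Uhrf1 were still called after rescaling.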

How the data were processed

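The authors deposited TPM per gene for 9 libraries in 3 tables of 6 columns, and each library had identical values in both tables that hold it. FastQC, STAR, featureCounts and build GRCm38 are named, without versions, per the submitters' processing notes. How TPM was computed, the annotation and the use of strand are not given in the sources used here. Libraries were made with Illumina TruSeq chemistry and read as paired ends of 75 bases, per the labels' protocols. TPM columns sum to 1000000 and keep no depth, so the only error used was the spread between libraries of a group. In fits with a block it is the spread left after differences between blocks are removed. In every fit limma moderates it over all genes, and each p-value sets a difference against that error.

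Each comparison was fitted on log2(TPM + 1) by limma (version 3.58.1, under R 4.3.3, eBayes with trend, two-sided) over the 6 libraries compared, for genes with a mean of at least 1 TPM, with Benjamini-Hochberg adjustment over all genes tested and a threshold of 0.05. No block was used in the main fit, and the sample code or the title's replicate number served as block in alternatives. The codes pair the samples: over 11065 genes, deviations from the group means correlated at 0.378 to 0.633 between libraries of the same code, against -0.515 to 0.633 for the title number, which pairs acute and chronic libraries as the code does. The script was tested on simulated data.

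Symbols were matched for 34582 of 34866 identifiers. Gene positions, overlaps and shared 75-base stretches came from GENCODE M21 on GRCm38, and start regions from RefSeq. Shared stretches were sought on both strands, so overlap with a gene on the opposite strand can also count as sharing. The 44 genes and the gene lists were chosen with earlier results of these data known. Values in every library are given for genes called in any comparison with or without the code block and, in each role, for the genes with the highest mean TPM and the largest chronic change. Of each other list at most 4 called genes are named, by size of change, besides 8 always named. Alternatives were the pseudocount (0.1 or 5), the filter (none, or a mean of 5 TPM), no trend, rescaling, quantile normalization, all 9 libraries in 1 fit, the blocks, and libraries or codes left out. The fits with the code block that left out code X or Y or used quantile normalization were chosen after seeing the data.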

Additional observations from a re-analysis of the deposited data

Results flagged for a closer look

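Cdc45, Pold1, Pole, Rfc2 and Rfc5 were singled out by the sign of their values: within each of the 3 sample codes the acute library was below the standard library and the chronic library above it. This held for 5 of the 44 genes (11.4%) and for 5.26% of all genes, and both comparisons share the standard libraries. None of the 5 passed in acute hypoxia against standard oxygen, and in chronic hypoxia against standard oxygen only Pold1 did, with the code block, so opposite directions were not tested. The log2 difference of chronic and acute hypoxia was 0.72 for Cdc45 and 1.16 for Pold1 (limma, adjusted p = 0.0229 and 0.0141 with the code block, 0.134 and 0.0687 without it). It was 0.65 for Pole, 0.28 for Rfc2 and 0.68 for Rfc5 (adjusted p = 0.0632, 0.0648 and 0.0557 with the code block), which did not pass. After rescaling, the chronic value of Rfc2 against standard oxygen turned to -0.02. In Rfc2 15.1% and in Rfc5 10.7% of exon bases are overlapped by a gene on the opposite strand.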

How the results depend on the processing

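Depth is unknown, 3 libraries a group limit the precision, and the block decided most calls. In acute hypoxia against standard oxygen, 3 genes were called in the main fit, 5 without the trend, 21 with rescaling, 23 with quantile normalization, 25 with all 9 libraries in 1 fit, 0 with the title number as block, 78 with the code block, 54 with that block and rescaling, 63 with that block and quantile normalization, 204 with that block over 9 libraries, 319 without code Z, 327 without code Z with the block, and 0 to 33 with 1 replicate left out. Of the 44 replication genes 0 were called, 1 with the code block over 9 libraries (Cdt1) and 2 without code Z.

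In chronic hypoxia against standard oxygen, 298 genes were called, 120 with no filter, 166 without the trend, 764 with all 9 libraries, 1 with the title number as block, 2039 with the code block, 1270 with that block and rescaling, 1217 with that block and quantile normalization, 2909 with that block over 9 libraries, 2300 without code Z, 3828 and 18 with the block and without code Z or Y, and 1 to 522 with 1 replicate left out. Of the replication genes 0 were called in the main fit, 2 with all 9 libraries (Dut and Pold1), 16 with the code block, 9 with that block and rescaling or quantile normalization, 20 with that block over 9 libraries, 22 without code Z, 28 and 1 with the block and without code Z or X, and 0 to 3 with 1 replicate left out. The title number as block called none. Rescaling without a block moved the higher share of calls from 232 of 298 to 115 of 234.

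In chronic against acute hypoxia, 77 genes were called, 7 with no filter, 25 without the trend, 415 with all 9 libraries, 1724 with the code or title number as block, 1084 with that block and rescaling, 1061 with that block and quantile normalization, 2450 with that block over 9 libraries, 1788 without code Z, 2751, 7 and 513 with the block and without code Z, X or Y, and 1 to 308 with 1 replicate left out. Of the replication genes 0 were called, 1 with all 9 libraries (Pold1), 14 with either block, 9 with that block and rescaling, 8 with that block and quantile normalization, 20 with that block over 9 libraries, 10 without code Z, and 15 and 7 with the block and without code Z or Y. Rescaling without a block moved the higher share of calls from 61 of 77 to 33 of 81.

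Between codes 16 replication genes were called, 9 with no filter, 8 with rescaling or quantile normalization, 0 between codes X and Y, 0 with the title number as the term tested, and 9 to 16 with 1 replicate left out, of which 8 to 12 were among the 16. Of the 30 fold changes called with the code block, none changed sign, and none passed in the main fit without a block. Under other settings 340 values did not pass and 169 did. With 1 replicate left out and no block, 179 did not pass and 1 did. The 169 include the fits with the code block by which the 30 were chosen, so those passes were fixed in advance. Over all 44 genes signs did change, in chronic hypoxia against standard oxygen for 6 genes with rescaling or quantile normalization and for 0 to 4 with 1 replicate left out, in chronic against acute hypoxia for 3 and for 1 to 3, and in acute hypoxia against standard oxygen for 2 and 4 and for 4 to 14. The cause of these differences was not tested.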

Other observations

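A list of 15 genes of replication stress and the origin checkpoint, which detect stalled forks, was measured in chronic hypoxia against standard oxygen, with a median log2 fold change of 0.175 beside 0.162 over all genes. With the code block 4 rose and none fell (limma, adjusted p under 0.05), against 15.1% and 3.3% of all genes. None passed without a block, and none after rescaling with the block. In acute hypoxia the median was -0.07 and none passed.

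The start regions held other letters as well. The core letters of the hypoxia response element, ACGTG on either strand, were in 15 of the 41 windows of replication genes (36.6%), in 8 of 19 windows of mitosis genes (42.1%) and in 19.6% of all windows. The CCAAT box on either strand was in 24 of the 41 windows (58.5%), in 17 of the 19 mitosis windows (89.5%) and in 37.4% of all windows. The E2F letters were in 1 of the 19 mitosis windows. No test was made of these counts, and short letters of this kind are found more often in windows rich in their bases.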
